A study of Homo sapiens with 15 samples.

Results

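Dominant-negative Rap1 is 1 of 9 treatments under which T4 cells of the HMT3522 human breast epithelial series were profiled as reverted, and its sample was set here against the samples of 5 other agents. These 6 samples of the series' 15 were chosen because their values were deposited together in 1 table, so no correction between tables was needed. The T4 line is malignant and descends from the same series as S1, a nonmalignant line, and all cells were grown as 3-dimensional cultures in laminin-rich extracellular matrix. The compared groups were T4 with dominant-negative Rap1 (1 sample) and T4 with TNF protease inhibitor-2, PD98059, Tyrphostin AG 1478, mAb225 or AIIB2 (1 sample each). Every compared sample is thus malignant T4 plus 1 agent. The labels give no dose, no time, no way of delivery for the dominant-negative Rap1 nor an empty vector, and do not say which samples had vehicle, whether cultures were separate or whether the T4 cells with dominant-negative Rap1 were 1 clone.

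Rap1 is a small GTPase of the Ras family that is active when bound to GTP and inactive when bound to GDP. Exchange factors load it with GTP, GTPase-activating proteins turn it off, and its effectors bring about inside-out activation of integrins and strengthen cadherin junctions. A dominant-negative form is a mutant that binds exchange factors without becoming active, and so keeps the cell's own Rap1 from being loaded. In matrix cultures, reverted T4 cells are those that take up a rounded, polarised form like that of S1 acini. PD98059 blocks MEK, the kinase that activates ERK, Tyrphostin AG 1478 and mAb225 block the EGF receptor, AIIB2 is an antibody against the β1 integrin, and TNF protease inhibitor-2 acts on the protease that sheds TNF.

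The dominant-negative Rap1 array stood apart from the 5 others. Over the 9111 genes tested its correlation with the others was 0.943 to 0.951, whereas the highest correlation that each of the 5 had with any other array was 0.972 to 0.995. It was at least 2-fold above the range of the 5 in 65 genes (0.713% of genes tested) and at least 2-fold below it in 60 genes (0.659%). When each of the 5 was set in turn against its own 5 counterparts, AIIB2 had 37 genes above and 8 below, TNF protease inhibitor-2 and PD98059 had 1 gene each, and Tyrphostin AG 1478 and mAb225 had 0. An exact one-sided permutation test of the count of 125 genes over the 6 samples gave p = 0.167, the smallest that 6 arrangements allow. Sample medians in the table were 7.35 to 7.40 on the log2 scale, and that of dominant-negative Rap1 was 7.39. With 1 sample, a property of the agent, of the culture and of the array cannot be told apart.

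**Figure D1:**
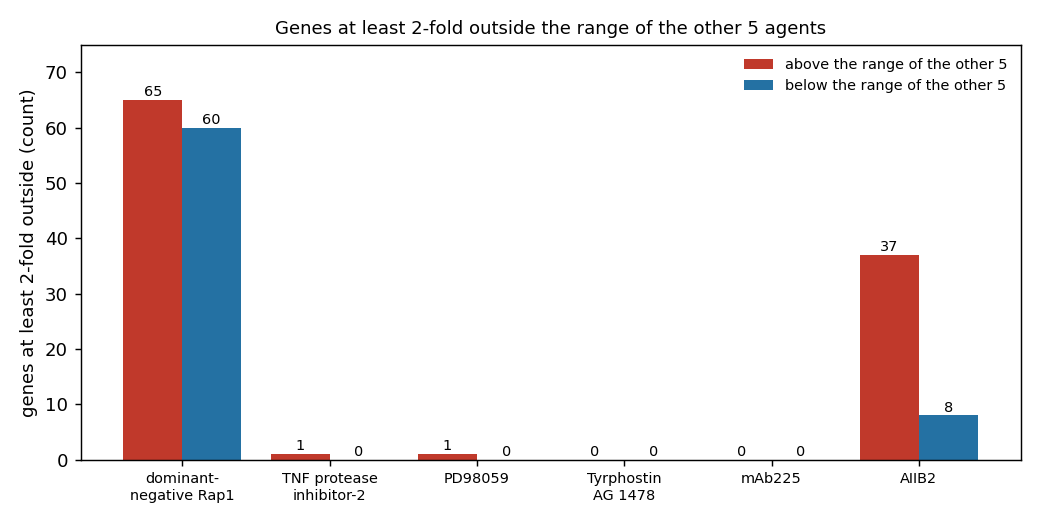
Number of genes (vertical axis) whose level in 1 agent's sample was at least 2-fold above (red) or below (blue) the range of the other 5 samples, for each of the 6 agents. Dominant-negative Rap1 had 65 and 60 genes, AIIB2 had 37 and 8, and no other agent had more than 1.

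A per-gene test was made with limma as 1 sample against 5, in which the single sample is assumed to vary as the 5 do and in which their spread includes the differences between their agents. By that test, after Benjamini-Hochberg adjustment at 0.05, 394 genes were higher (4.32%) and 290 lower (3.18%) with dominant-negative Rap1. Any distance above the range was seen in 2485 genes (27.3%) and any distance below it in 2486 genes (27.3%), which is the background for the counts of gene groups given here. The limma counts moved with the composition of the 5. Genes higher numbered 148 without Tyrphostin AG 1478, 200 without mAb225, 207 without PD98059, 401 without TNF protease inhibitor-2 and 779 without AIIB2, and genes lower numbered 102, 159, 155, 333 and 710 in the same order. Limma called 61 of the 65 genes that lay at least 2-fold above and 56 of the 60 that lay at least 2-fold below.

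**Figure D2:**
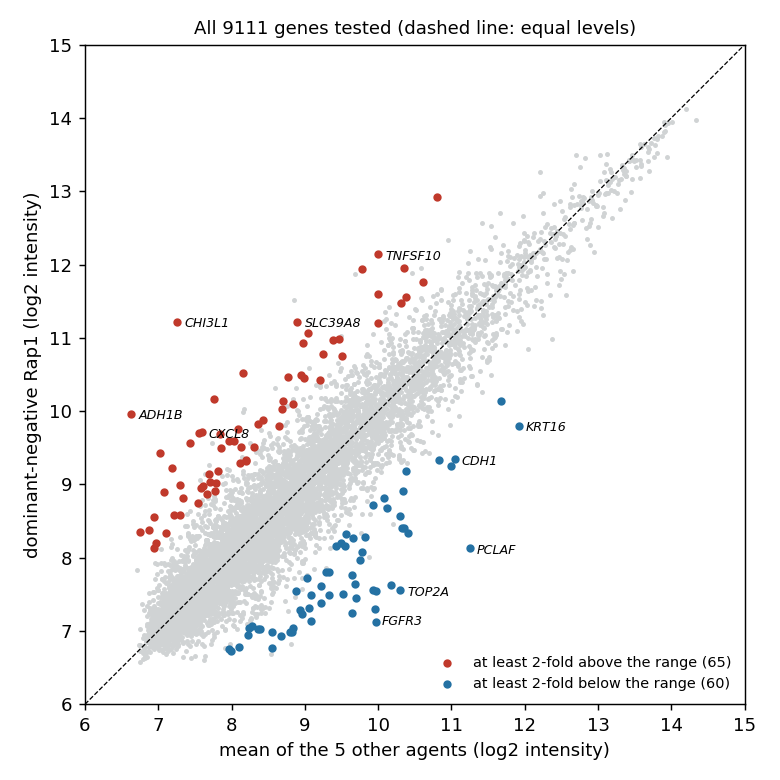
Level in the dominant-negative Rap1 sample (vertical axis, log2 intensity) against the mean of the 5 other agents (horizontal axis) for each of the 9111 genes tested. Red points are the 65 genes at least 2-fold above the range of the 5 and blue points the 60 at least 2-fold below it.

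The group farthest below the other agents was made of genes of cell division, the machinery of mitosis that is transcribed late in the cell cycle. Of the 30 cell division genes listed, 30 lay below the range of the 5 (background 27.3%), 24 passed the limma test as lower and 0 as higher (backgrounds 3.18% and 4.32%), and the median difference was -1.43 on the log2 scale, against -0.01 over all genes tested. Their distances below the lowest of the 5 ran from 0.56 to 2.26. The median level of the list was 7.35 with dominant-negative Rap1, near the sample's median over all probe sets, and 8.69 to 9.40 with the 5 other agents. In S1 sample 3, the nonmalignant sample of the same table, it was 8.39. Leaving out 1 agent gave 19 to 28 lower calls in the list, and representing each gene by its most variable probe set (largest interquartile range) gave 18. In bulk samples, fewer dividing cells and less of these transcripts per cell cannot be told apart.

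Promoter bases of 6 of these genes, those of the list among the 12 genes farthest below the range, are shown because genes of late cell cycle phases are known to carry CCAAT boxes and the element TTTGAA, called the CHR, close to their starts. Each sequence is the 250 bases before the gene's start from the RefSeq promoter table (GRCh38.p14), 5′ to 3′ on the gene's strand, with CCAAT (or ATTGG) and TTTGAA (or TTCAAA) in capitals. CDK1 has 2 windows, of which the one with the most matches is shown.

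CCNB2, upstream 250 bases, chr15:59104896-59105145, plus strand: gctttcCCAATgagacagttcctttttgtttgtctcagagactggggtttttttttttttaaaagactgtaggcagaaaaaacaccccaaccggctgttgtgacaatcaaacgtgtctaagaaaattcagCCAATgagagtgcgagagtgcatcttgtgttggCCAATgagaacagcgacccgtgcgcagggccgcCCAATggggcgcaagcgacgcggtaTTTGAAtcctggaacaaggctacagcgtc
CDK1, upstream 250 bases, chr10:60778228-60778477, plus strand: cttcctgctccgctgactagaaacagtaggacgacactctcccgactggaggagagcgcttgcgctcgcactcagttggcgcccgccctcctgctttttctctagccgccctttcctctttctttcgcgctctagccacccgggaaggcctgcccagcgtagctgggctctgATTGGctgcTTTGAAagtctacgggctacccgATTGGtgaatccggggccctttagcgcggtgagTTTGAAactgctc
TOP2A, upstream 250 bases, chr17:40417897-40418146, minus strand: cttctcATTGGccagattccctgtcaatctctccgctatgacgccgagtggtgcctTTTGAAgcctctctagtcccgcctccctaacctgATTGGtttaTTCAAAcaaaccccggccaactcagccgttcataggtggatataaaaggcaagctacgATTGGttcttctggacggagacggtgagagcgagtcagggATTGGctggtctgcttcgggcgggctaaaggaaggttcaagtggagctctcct
NUSAP1, upstream 250 bases, chr15:41332631-41332880, plus strand: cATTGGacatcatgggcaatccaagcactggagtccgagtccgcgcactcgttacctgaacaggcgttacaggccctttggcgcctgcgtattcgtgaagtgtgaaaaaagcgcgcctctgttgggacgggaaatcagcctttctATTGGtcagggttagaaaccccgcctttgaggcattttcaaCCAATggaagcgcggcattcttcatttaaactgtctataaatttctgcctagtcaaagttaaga
PRC1, upstream 250 bases, chr15:90994536-90994785, minus strand: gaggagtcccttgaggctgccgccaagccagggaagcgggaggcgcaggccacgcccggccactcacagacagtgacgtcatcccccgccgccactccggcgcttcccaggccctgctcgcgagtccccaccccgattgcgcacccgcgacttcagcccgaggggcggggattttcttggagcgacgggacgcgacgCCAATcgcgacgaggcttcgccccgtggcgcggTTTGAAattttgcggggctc
DLGAP5, upstream 250 bases, chr14:55191586-55191835, minus strand: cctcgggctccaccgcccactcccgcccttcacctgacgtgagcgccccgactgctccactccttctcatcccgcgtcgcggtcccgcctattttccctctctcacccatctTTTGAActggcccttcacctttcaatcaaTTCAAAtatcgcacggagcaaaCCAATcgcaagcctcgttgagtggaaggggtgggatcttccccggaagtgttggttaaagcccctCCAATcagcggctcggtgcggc

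The window of NUSAP1 holds no TTTGAA, and the other 5 hold it. A script found TTTGAA on either strand in the 250 bases of 12 of the 24 cell division genes that had a window in the table (50.0%), in 21 of 50 genes at least 2-fold below the range (42.0%) and in 7 of 51 genes at least 2-fold above it (13.7%). Among the 7499 tested genes with a window the share was 12.6%, and among all 35116 windows 13.3%. CCAAT on either strand stood in 20 of the 24 (83.3%), in 38 of the 50 (76.0%) and in 23 of the 51 (45.1%), against 43.3% of the tested genes and 32.0% of all windows. A gene counts if any of its windows holds the motif. Genes of late cell cycle phases are known for these motifs, so the share of the list is no finding. Of the genes at least 2-fold below the range, 19 are on the list, so that share is not separate from it. These are matches of letters, with no overlap between the motifs, and binding was not measured.

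CCNB2, the B-type cyclin that works with CDK1 in mitosis, had a level of 7.56 with dominant-negative Rap1, against 10.28 with TNF protease inhibitor-2, 10.12 with PD98059, 9.97 with Tyrphostin AG 1478, 9.58 with mAb225 and 9.68 with AIIB2. The 5 values lay together and the single one below them all, a difference of -2.36 ± 0.26 (standard error, 5.14-fold lower, limma adjusted p = 0.00638). CDK1, the kinase that drives entry into mitosis, was at 7.64, against 9.93, 9.91, 9.69, 9.41 and 9.44 with the same agents in the same order. That is a 4.12-fold lower level (difference -2.04 ± 0.22, limma adjusted p = 0.00647), and both other CDK1 probe sets were below the range too. With the most variable CDK1 probe set the difference was -1.44 (limma adjusted p = 0.0510). TOP2A, the topoisomerase that untangles replicated DNA, was at 7.56, against 10.45, 10.76, 10.44, 10.05 and 9.77 (difference -2.74 ± 0.33, limma adjusted p = 0.00759).

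Genes of the spindle and its midzone were placed alike. NUSAP1, which bundles spindle microtubules, was at 7.63 with dominant-negative Rap1, against 10.40, 10.39, 10.20, 10.03 and 9.88 with the 5 agents (difference -2.56 ± 0.21, limma adjusted p = 0.00334). PRC1, which crosslinks microtubules of the midzone, was at 7.25, against 9.84, 9.82, 9.66, 9.45 and 9.48 (difference -2.40 ± 0.18, limma adjusted p = 0.00256). In neither gene did the groups overlap, which follows from how the genes were named. ASPM, DLGAP5, ZWINT and PBK, which act at spindle poles, on spindle microtubules, at the kinetochore and as a mitotic kinase, were also lower, by 1.80 to 2.43 on the log2 scale. ASPM was at 7.45, against 9.13 to 10.09 with the 5 agents. DLGAP5 was at 7.14, against 8.80 to 9.37, ZWINT at 7.54, against 9.61 to 10.39, and PBK at 7.03, against 8.71 to 9.03.

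**Figure D3:**
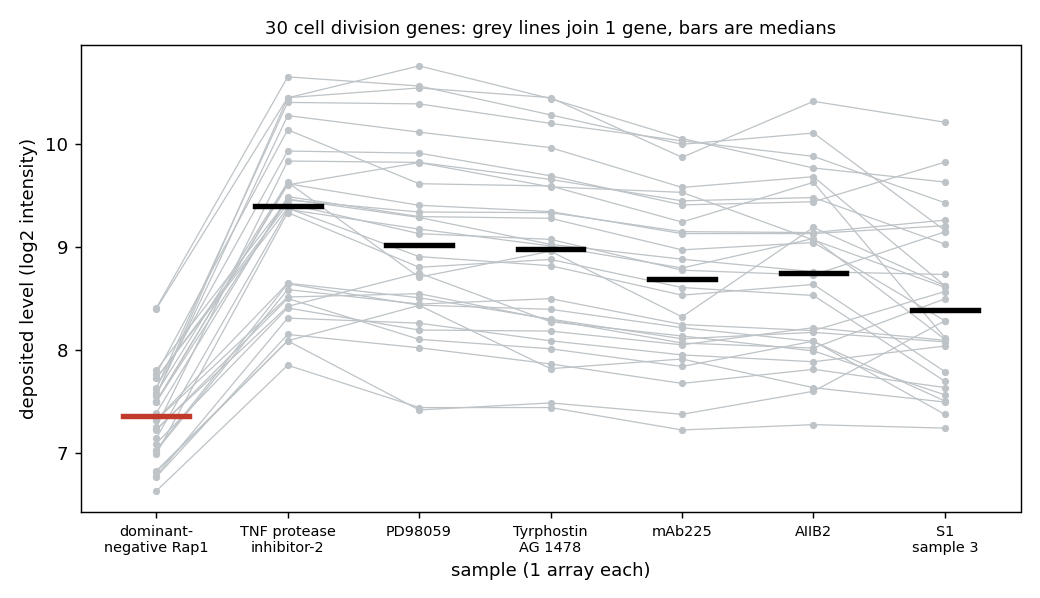
Levels (vertical axis, log2 intensity) of the 30 cell division genes in the 7 samples of the table, 1 grey line a gene, with the list's median as a bar (red for dominant-negative Rap1). The median is 7.35 with dominant-negative Rap1, 8.69 to 9.40 with the 5 other agents and 8.39 in S1 sample 3.

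The levels of these genes were also low against samples outside the comparison. The dominant-negative Rap1 sample was below all 8 other agents of both tables in 30 of the 30 cell division genes, and was the lowest of all 15 samples in 22. The tables may have been normalized separately, so levels set across them are descriptions. CCNB2 was at 8.62 in S1 sample 3, at 10.19 with GM6001, at 10.26 in the sample labelled MMPs and ADAMs, and at 9.99 with LY294002, and averaged 10.54 in T4 cells (n = 3). CCNB2 was at 9.51 and 8.20 in S1 samples 1 and 2. CDK1 was at 9.82 in S1 sample 3, among the 5 agents, and at 9.08 and 8.65 in S1 samples 1 and 2, below them.

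Genes of DNA replication, which are transcribed earlier in the cycle, were lower by less (backgrounds 27.3% below the range and 3.18% lower by limma). Of 29 tested, 27 lay below the range, 9 passed the limma test as lower and 0 as higher, and the median difference was -0.79. The list's median level was 7.68 with dominant-negative Rap1, 8.27 to 8.78 with the 5 agents and 9.04 in S1 sample 3. The 9 calls became 3 without PD98059 or without Tyrphostin AG 1478, 14 without AIIB2, and 5 with the most variable probe set. RRM2, the small subunit of ribonucleotide reductase, was at 7.12 with dominant-negative Rap1, against 10.65, 9.88, 10.05, 9.48 and 9.79 with the 5 agents. It was 7.21-fold lower (difference -2.85 ± 0.37, limma adjusted p = 0.00946), and -2.08 by the most variable probe set (limma adjusted p = 0.0909). The helicase subunits MCM2, MCM5 and MCM4 were lower by 1.28, 1.23 and 1.07, and passed the limma test, MCM5 not without PD98059 or Tyrphostin AG 1478. MCM2 was at 8.16, against 9.31 to 9.56, and the S1 samples were on both sides of it, at 10.39 in S1 sample 3 of the same table and at 8.02 and 7.99 in S1 samples 1 and 2. RRM2 was at 9.88 in S1 sample 3 and at 7.33 and 7.21 in S1 samples 1 and 2. For MCM4 the difference was -0.37 with another probe set (limma adjusted p = 0.635), so its change depended on the probe set.

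PCLAF, a factor that binds the replication clamp PCNA, was the gene farthest below the range. Its level was 8.13 with dominant-negative Rap1, against 12.13, 11.05, 11.14, 10.85 and 11.08 with the 5 agents. TNF protease inhibitor-2 was the highest of the 5, and all 5 lay over 2 log2 units above dominant-negative Rap1 (difference -3.12 ± 0.43, 8.72-fold lower, limma adjusted p = 0.0104). The most variable probe set gave -0.85 (limma adjusted p = 0.191). Among cyclins of G1, the phase before replication, CCNE2 was lower (6.80, against 7.45 to 7.83, limma adjusted p = 0.0208), whereas CCND3, a D-type cyclin, was higher. CCND3 was at 10.47, against 8.62, 8.49, 8.73, 8.96 and 9.08 (difference 1.69 ± 0.22, limma adjusted p = 0.00908). Of the 16 genes in the list of G1 cyclins, kinases and their inhibitors, 2 were higher and 2 lower by limma, and over the alternatives 1 to 3 higher and 0 to 2 lower. CCNE2 lost its call without PD98059 or Tyrphostin AG 1478 and with the mean of all probe sets.

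FGFR3, a receptor for fibroblast growth factors, was second in distance below the range. It was at 7.30 with dominant-negative Rap1, against 9.93, 9.90, 9.85, 9.88 and 10.22 with the 5 agents (difference -2.66 ± 0.15, 6.30-fold lower, limma adjusted p = 0.00127). S1 sample 3 was at 9.13. T4 cells averaged 7.27 ± 0.15 (SD, n = 3), and the agents of the other table, GM6001, MMPs and ADAMs and LY294002, were at 7.89, 8.09 and 8.29. FGFR3 was thus low in the dominant-negative Rap1 sample, and set across the tables its level there was within the T4 SD of the T4 mean. A second FGFR3 probe set, the one with the larger interquartile range over the 6 samples, gave -0.51. With it the limma call was lost, so the size of the FGFR3 change and its call depended on the probe set.

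**Figure D4:**
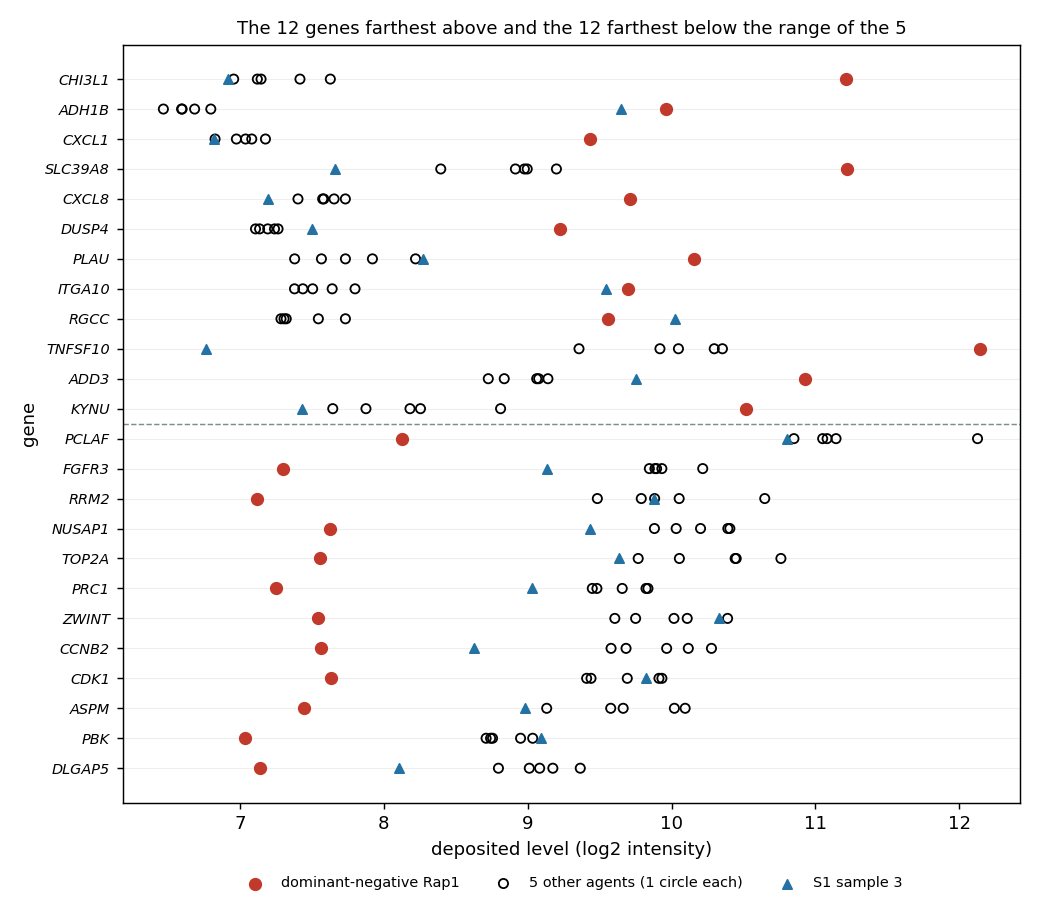
Deposited levels (horizontal axis, log2 intensity) of the 12 genes farthest above and the 12 farthest below the range of the 5 other agents, with dominant-negative Rap1 as a red point, the 5 agents as open circles and S1 sample 3 as a triangle. ADH1B, ITGA10 and RGCC have their triangle beside the red point, at 9.65, 9.54 and 10.02.

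CHI3L1, a secreted glycoprotein that binds chitin, was farthest above the range. Its level was 11.21 with dominant-negative Rap1, against 7.42, 7.63, 7.12, 7.15 and 6.96 with the 5 agents. These 5 values lay within 0.5 of their sample medians, and the difference was 3.96 ± 0.24 (15.6-fold higher, limma adjusted p = 0.00131). Of its 2 other probe sets 1 was above the range and 1 below it by less than 0.5. S1 sample 3 was at 6.92, T4 averaged 6.94 ± 0.21 (SD, n = 3), and the 3 agents of the other table were at 7.45 to 7.72, so no other sample named here came near the dominant-negative Rap1 level.

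ADH1B, an alcohol dehydrogenase, was at 9.96, against 6.60, 6.47, 6.59, 6.69 and 6.80 with the 5 agents (difference 3.33 ± 0.13, 10.1-fold higher, limma adjusted p = 0.000424). The 5 levels were under the lower quartiles of their samples (6.88 to 6.91), so the fold is a lower estimate if the transcript was absent there. Unlike CHI3L1 it was also high in S1, at 9.65 in S1 sample 3 and at 9.17 and 8.99 in S1 samples 1 and 2, whereas T4 averaged 6.87 ± 0.02 (SD, n = 3). ITGA10, an integrin α subunit for collagen, was at 9.70, against 7.64, 7.44, 7.51, 7.80 and 7.38 (difference 2.14 ± 0.17, limma adjusted p = 0.00302), and at 9.54 in S1 sample 3. RGCC, a regulator of the cell cycle, was at 9.56, against 7.73, 7.55, 7.29, 7.32 and 7.31 (difference 2.12 ± 0.18, limma adjusted p = 0.00407). RGCC was at 10.02 in S1 sample 3 and at 10.93 with LY294002 in the other table. In these 3 genes, singled out after their values were seen, dominant-negative Rap1 was within 0.5 of S1 sample 3.

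SLC39A8, a zinc importer, was at 11.22, against 9.0, 9.20, 8.98, 8.91 and 8.40 with the 5 agents (difference 2.32 ± 0.26, limma adjusted p = 0.00723), and its 3 other probe sets were above the range as well. TNFSF10, the death ligand TRAIL, was at 12.14, against 9.36, 9.92, 10.05, 10.30 and 10.35 (difference 2.15 ± 0.34, limma adjusted p = 0.0159), and its call was lost without Tyrphostin AG 1478 (limma adjusted p = 0.0522). PLAU, the urokinase protease that activates plasminogen, was at 10.16, against 7.92, 7.57, 7.38, 7.73 and 8.22 (difference 2.39 ± 0.28, limma adjusted p = 0.00759). By the rule that named these 3 genes, no value of the 5 reached that of dominant-negative Rap1. ADD3, an actin-capping protein of the membrane skeleton, was at 10.92, against 8.73 to 9.14, and KYNU, an enzyme of tryptophan breakdown, at 10.52, against 7.65 to 8.81, and both passed the limma test.

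Chemokines were among the genes farthest above the range. In the list of NF-kappaB and cytokine genes, 6 of 24 were higher by limma (background 4.32%) and 0 lower, 13 lay above the range, and the median difference was 0.17. The 6 calls became 3 without Tyrphostin AG 1478, 4 without mAb225 and 3 with genes under the median level left out. CXCL1, which draws neutrophils, was at 9.43, against 7.04, 7.08, 6.98, 7.18 and 6.83 (difference 2.41 ± 0.14, limma adjusted p = 0.00127). CXCL8, the chemokine interleukin-8, was at 9.71, against 7.40, 7.73, 7.58, 7.58 and 7.65 (difference 2.12 ± 0.13, limma adjusted p = 0.00135), with 2 of its 4 other probe sets above the range and 1 below it. Neither gene's groups overlapped, as the rule for named genes requires. T4 averaged 8.29 ± 0.95 for CXCL1 and 10.41 for CXCL8 (n = 3). CCL20, which draws immature dendritic cells, was at 8.58, against 7.16 to 7.46 (limma adjusted p = 0.00606), and T4 averaged 10.55. SOD2, the mitochondrial superoxide dismutase, was at 12.34, against 10.27 to 11.51, and did not pass (limma adjusted p = 0.0962), though it did without AIIB2, with the most variable probe set and with the mean of all probe sets.

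The upstream bases of CXCL1 and CXCL8 are shown because both hold the kappaB-like site GGAATTTCC, in capitals here, within 250 bases of their starts (RefSeq, GRCh38.p14, 5′ to 3′ on the gene's strand).

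CXCL1, upstream 250 bases, chr4:73869143-73869392, plus strand: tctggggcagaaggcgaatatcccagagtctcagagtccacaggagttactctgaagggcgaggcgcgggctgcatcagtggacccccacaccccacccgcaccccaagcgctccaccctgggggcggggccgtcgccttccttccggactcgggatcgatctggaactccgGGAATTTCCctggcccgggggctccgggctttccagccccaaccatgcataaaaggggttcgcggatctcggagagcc
CXCL8, upstream 250 bases, chr4:73740319-73740568, plus strand: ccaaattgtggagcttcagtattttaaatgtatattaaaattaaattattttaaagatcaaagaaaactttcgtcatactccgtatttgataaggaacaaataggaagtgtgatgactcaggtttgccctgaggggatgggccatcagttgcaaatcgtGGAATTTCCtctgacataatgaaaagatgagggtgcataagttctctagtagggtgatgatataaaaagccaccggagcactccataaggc

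GGAATTTCC or its reverse complement GGAAATTCC stood in the 250 bases of 7 of 17 NF-kappaB and cytokine genes with a window (41.2%), in 3 of 51 genes at least 2-fold above the range (5.88%) and in 0 of 50 genes at least 2-fold below it. The share was 0.613% among tested genes and 0.413% of all windows. The list was made of genes known for this control, so its share is no finding, and no factor was measured. The 3 of the 51 are CXCL1, CXCL8 and the chemokine CXCL10, named here for being high, so that share is no separate finding.

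Interferon response genes, a set that type I interferon signalling turns on, lay higher as a group (backgrounds 27.3% above the range and 4.32% higher by limma). Of 30 tested, 18 were above the range and 0 below it, 8 were higher by limma and 0 lower, and the median difference was 0.57. Calls in the list numbered 4 without PD98059, 4 without Tyrphostin AG 1478, 5 without mAb225, 10 without TNF protease inhibitor-2 and 18 without AIIB2. CXCL10, a chemokine induced by interferon, was at 8.59, against 7.20, 7.29, 7.14, 7.16 and 7.26 (difference 1.38 ± 0.10, limma adjusted p = 0.00256). IRF9, the DNA-binding part of the factor that interferon activates, was at 9.51, against 8.31, 8.28, 7.80, 8.13 and 8.13 (difference 1.39 ± 0.19, limma adjusted p = 0.0106). IFIT1, which binds viral RNA, was at 9.29, against 7.93 to 8.22, and IFITM1, which restricts viral entry, at 10.59, against 8.79 to 9.61. These 4 were named for lying outside the range, so the lack of overlap with the 5 agents is no further result. IFITM1 lost its limma call without PD98059, Tyrphostin AG 1478 or mAb225. HLA-F, a class I gene, was at 10.49, against 9.05 to 9.63 (limma adjusted p = 0.0310, a call lost without PD98059, Tyrphostin AG 1478 or mAb225 and with the most variable probe set), but HLA genes are near copies of each other and a probe set may read several.

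Hypoxia genes, the targets of the HIF factors, had 6 of 21 higher by limma, 0 lower, 14 above the range and 2 below it, with a median difference of 0.51. BNIP3, a mitophagy receptor, was at 10.96, against 9.25, 9.59, 9.34, 9.47 and 9.28 (difference 1.58 ± 0.14, limma adjusted p = 0.00434). VEGFA, the endothelial growth factor, was at 8.86, against 7.59, 7.59, 7.63, 7.67 and 7.85 (difference 1.20 ± 0.13, limma adjusted p = 0.00615). P4HA1, a collagen prolyl hydroxylase, was at 10.10, against 8.63 to 9.0, and LOX, which crosslinks collagen, at 9.45, against 8.20 to 8.46, and both passed. The count became 11 without AIIB2 and 4 with genes under the median level left out. Of glycolysis genes, many of which HIF also controls, 2 of 20 were higher (HK2 and ENO2) and TPI1 was lower. HK2 lost its call without PD98059 or Tyrphostin AG 1478 and with the mean of all probe sets, and its 1 other probe set lay below the range. ENO2 lost its call without Tyrphostin AG 1478. TPI1 lost its call without any 1 agent but AIIB2, with the most variable probe set and with the mean of all probe sets. For the hypoxia and glycolysis lists the backgrounds were 27.3% above and 27.3% below the range, 4.32% higher and 3.18% lower by limma.

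ERK output genes, which ERK signalling induces and some of which feed back on it, had 5 of 23 higher by limma and 0 lower, with 13 above the range and a median difference of 0.37. DUSP4, a phosphatase of ERK, was at 9.23, against 7.14, 7.11, 7.24, 7.26 and 7.19 (difference 2.04 ± 0.10, 4.11-fold higher, limma adjusted p = 0.00107). EREG, a ligand of the EGF receptor, was at 7.84, against 6.71, 6.69, 6.61, 6.61 and 6.93 (difference 1.13 ± 0.14, limma adjusted p = 0.00817). ETV1, an ETS factor, was at 7.92, against 6.92 to 7.12. Background shares for the list were 27.3% above the range and 4.32% higher by limma. The DUSP4 values with PD98059, Tyrphostin AG 1478 and mAb225, which block MEK or the EGF receptor, were 7.11, 7.24 and 7.26. Those with TNF protease inhibitor-2 and AIIB2 were 7.14 and 7.19, and whether these agents also act on this pathway was not tested. The T4 means across the tables were 8.62 for DUSP4 and 9.28 for EREG. The 5 calls became 3 without TNF protease inhibitor-2, PD98059, Tyrphostin AG 1478 or mAb225 in turn, 8 without AIIB2, and 2 with the most variable probe set or with genes under the median level left out.

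The genes of the Rap1 pathway itself had list medians near the -0.01 of all genes tested. Of 20 tested genes of the Rap1 cycle, 4 lay above the range and 8 below it. Of 16 effectors and integrin activators, 4 lay above it and 4 below, against backgrounds of 27.3% each way. The limma counts of both lists lie near the shares over all genes, 4.32% higher and 3.18% lower. Of 20 genes of the Rap1 cycle, 1 was higher and 1 lower by limma, with a median difference of -0.06. Lower calls numbered 3 without AIIB2 and 0 without PD98059, Tyrphostin AG 1478 or mAb225. Of 16 effectors and integrin activators 0 were higher and 1 lower, with a median of 0.02. RAP1A, one of the 2 genes that encode Rap1, was at 10.91, against 10.06, 10.07, 10.21, 10.18 and 10.18 with the 5 agents (difference 0.76 ± 0.10, 1.70-fold higher, limma adjusted p = 0.0104). RAP1B, the other, was at 11.32, against 10.89, 10.91, 11.03, 11.10 and 11.14 (difference 0.31 ± 0.13, limma adjusted p = 0.195), above all 5 without passing the test. The labels do not say which form the dominant-negative Rap1 derives from, and whether these probe sets read its transcript was not tested. The gene that was lower among the effectors was FERMT1, a kindlin that binds integrin tails, at 8.57, against 9.10 to 9.45 (limma adjusted p = 0.0388), a call lost without PD98059, Tyrphostin AG 1478 or mAb225.

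Among integrin subunits, the receptors that Rap1 signalling activates, 3 of 13 were higher by limma and 0 lower, with a median difference of 0.33. Besides ITGA10 these included ITGAV, the αv subunit, at 10.68, against 9.94, 9.94, 9.90, 10.03 and 10.06 (difference 0.70 ± 0.11, limma adjusted p = 0.0133). ITGB5, a β partner of αv, was at 9.20, against 7.74, 7.66, 7.93, 7.76 and 8.60, with AIIB2 the highest of the 5, and did not pass (limma adjusted p = 0.0657), though it did without AIIB2 and with the mean of all probe sets. The integrin count was 2 without TNF protease inhibitor-2, PD98059, Tyrphostin AG 1478 or mAb225, 5 without AIIB2, 2 after quantile normalization and 6 with the mean of all probe sets.

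Adhesion and junction genes were mixed, with 1 of 25 higher, 3 lower by limma, 13 below the range, 4 above it and a median of -0.22. CDH1, the E-cadherin of epithelial junctions, was at 9.34, against 10.64, 10.76, 10.99, 10.90 and 11.92 (difference -1.70 ± 0.43). It lay below every one of the 5 and missed the threshold (limma adjusted p = 0.0610). EPCAM, an epithelial adhesion molecule, was at 7.51, against 8.30, 8.80, 8.70, 8.48 and 8.47, and passed as lower (limma adjusted p = 0.0233), whereas DSG2, a desmosomal cadherin, was at 11.65, against 10.78 to 10.95, and passed as higher (limma adjusted p = 0.0101). CLDN1, a tight junction claudin, was at 11.51, against 8.47, 8.42, 8.12, 8.72 and 10.51, with AIIB2 apart from the other 4 (limma adjusted p = 0.0906). EPCAM lost its call without Tyrphostin AG 1478 or mAb225, and CDH1 and CLDN1 gained one without AIIB2. CDH1 gained it also after quantile normalization and with genes under the median level left out. Over the alternatives the CDH1 difference ran from -1.80 to -0.54, so its size depended on the setting. Backgrounds for this list and the integrin subunits were 27.3% above and 27.3% below the range, 4.32% higher and 3.18% lower by limma. The 3 lower calls became 1 with the most variable probe set, 1 without PD98059, 0 without Tyrphostin AG 1478, 0 without mAb225 and 5 without AIIB2.

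Of 22 matrix and basement membrane genes, 4 were higher and 1 lower by limma, with a median of -0.05 that turned positive under other choices of probe set or filter. The counts were 2 to 5 higher and 0 to 3 lower over all alternatives, with 3 lower without AIIB2. FN1, the matrix protein fibronectin, was at 8.89, against 6.97, 7.10, 7.08, 7.20 and 7.04 (difference 1.81 ± 0.11, 3.52-fold higher, limma adjusted p = 0.00135). T4 averaged 11.04 across the tables and S1 sample 3 was at 7.54, so the dominant-negative Rap1 value lay between the 5 agents and T4. THBS1, the matrix protein thrombospondin-1, was at 9.60, against 7.86 to 8.33 (limma adjusted p = 0.00661), and T4 averaged 11.50. LAMB3, a chain of laminin-332, was at 11.20, against 9.75 to 10.43, and COL4A1, a chain of collagen IV, at 7.88, against 7.16 to 7.29. Both passed, COL4A1 not with the most variable probe set. LAMB3 lost its call without PD98059, Tyrphostin AG 1478 or mAb225, with the most variable probe set and without the filter on dim genes. The limma backgrounds for this list were 4.32% higher and 3.18% lower. AXL, a receptor kinase on the YAP list, was at 8.99, against 7.05 to 7.79 (limma adjusted p = 0.0136), and at 10.02 in S1 sample 3.

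Lipid synthesis genes lay lower (backgrounds 27.3% below the range, 3.18% lower and 4.32% higher by limma). Of 11 fatty acid synthesis genes 4 were lower by limma, 0 higher, 8 below the range, with a median of -0.54, and of 16 cholesterol genes 3 were lower, 0 higher, 9 below the range, with a median of -0.28. ACACA, which makes malonyl-CoA, was at 9.29, against 10.50, 10.40, 10.49, 10.42 and 10.12 (difference -1.10 ± 0.15, limma adjusted p = 0.0114). ACLY, which makes cytosolic acetyl-CoA, was at 9.38, against 10.05 to 10.45, and ELOVL6, which lengthens fatty acids, at 7.61, against 8.59 to 9.10, and both passed. FASN, the fatty acid synthase, was at 8.58, against 9.18 to 9.63, and did not pass (limma adjusted p = 0.0596). EBP, an isomerase of sterol synthesis, was at 8.81, against 10.26, 9.92, 10.09, 9.82 and 10.31 (difference -1.27 ± 0.20, limma adjusted p = 0.0144), and SREBF2, the factor that drives sterol genes, at 7.83, against 8.65 to 8.71 (limma adjusted p = 0.00615). Without Tyrphostin AG 1478 the calls of ACLY, ELOVL6 and EBP were lost, and without AIIB2 FASN passed. ELOVL6 lost its call also without mAb225 and with the most variable probe set. Over the alternatives the FASN difference ran from -0.87 to -0.38, and its 1 other probe set was not outside the range. The fatty acid count was 1 without Tyrphostin AG 1478, 2 without mAb225, 6 without AIIB2 and 2 with the most variable probe set, and the cholesterol count was 1 without Tyrphostin AG 1478, and 2 to 3 without any other agent.

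**Figure D5:**
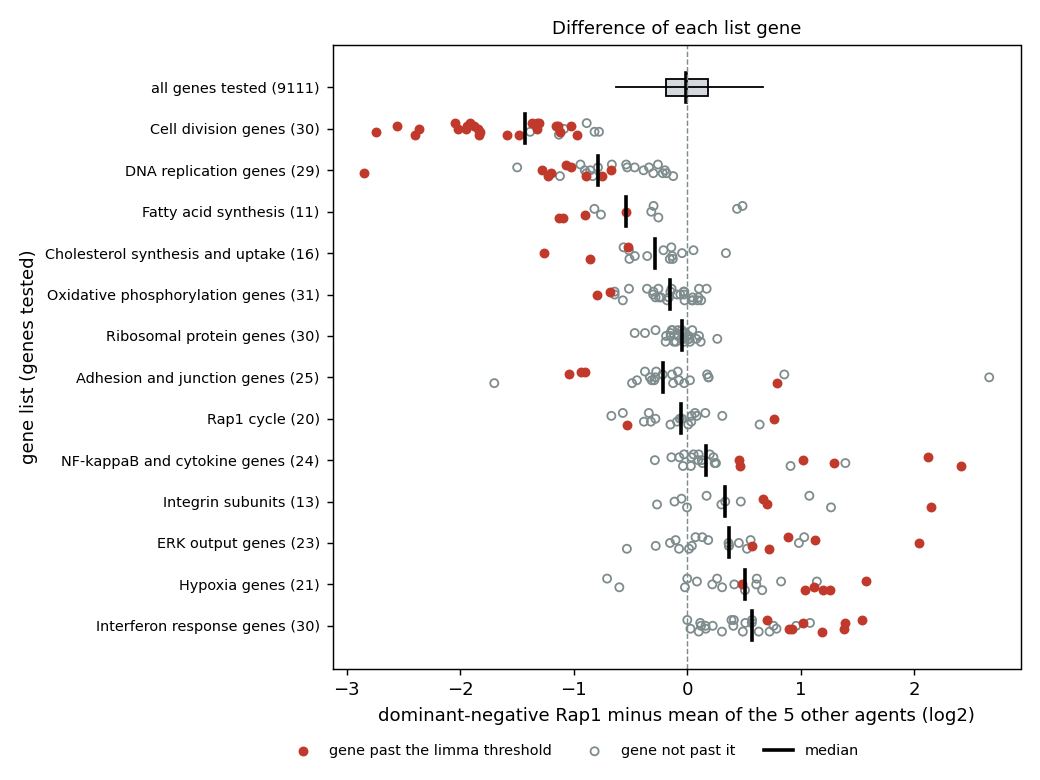
Difference between dominant-negative Rap1 and the mean of the 5 other agents (horizontal axis, log2) for each tested gene of 13 lists, with red points for genes past the limma threshold, open points for the rest and a bar at the median. The box and line at the top show the middle 50% and 90% of all 9111 genes. The cell division list has its median at -1.43, the interferon list at 0.57 and all genes at -0.01.

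Oxidative phosphorylation genes had 2 of 31 lower (COX5A and ATP5MC1), 0 higher and a median of -0.15 (4 calls without AIIB2 and 1 without Tyrphostin AG 1478). The FOXO list had 2 of 15 higher, CITED2 and CCNG2, a count that became 0 without PD98059 or mAb225, 1 without Tyrphostin AG 1478 and 4 without AIIB2. Of the ATF4 and unfolded protein list, DDIT3 was higher (9.70, against 8.29 to 8.72) and ASNS lower (7.84, against 8.71 to 8.89) by limma. Over all genes tested, the limma shares were 4.32% higher and 3.18% lower. The counts of oxidative phosphorylation and histone genes lie near these shares and are no result about those lists. Of 14 histone genes 1 was higher, H2BC8, at 9.27, against 7.34 to 8.31 (limma adjusted p = 0.0378), a call lost without any 1 of TNF protease inhibitor-2, PD98059, Tyrphostin AG 1478 or mAb225, while histone genes are near copies that a probe set may not separate.

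Epithelial markers differed in level. The basal keratins KRT5 and KRT14 were at 13.5 and 14.0 with dominant-negative Rap1, against at least 13.8 and 14.2 with the 5 agents. KRT19, a luminal keratin, did not pass the filter on dim genes, at 6.69, against 6.52 to 6.67. EPCAM and CDH1 were below the range, as given above. KRT16, a keratin of activated epithelium, was at 9.80, against 11.24, 11.98, 11.70, 11.72 and 12.94 (limma adjusted p = 0.0594). KRT15, a basal keratin, was at 11.03, against 9.07 to 10.04 (limma adjusted p = 0.0388, a call lost without PD98059, Tyrphostin AG 1478 or mAb225), and KRT18, a luminal one, at 11.57, against 10.63 to 10.85 (limma adjusted p = 0.0138). KRT15 lost its call also without the filter on dim genes. Most markers of other cell types were low. Of the markers listed, 7 of 13 measured for leukocytes, 3 of 10 for endothelium, 6 of 12 for fibroblasts and 2 of 6 for adipocytes passed the filter on dim genes. The summed log2 levels were 92.9 with dominant-negative Rap1 and 92.9 to 94.2 with the 5 agents for leukocytes, 69.6 and 68.6 to 69.4 for endothelium, 90.1 and 87.0 to 89.9 for fibroblasts, and 41.2 and 41.1 to 41.6 for adipocytes. PTPRC, the pan-leukocyte CD45, was at 6.81, against 6.85 to 7.05, and PECAM1, of endothelium, at 6.99, against 6.67 to 6.89. Limma called ITGAM, an integrin of myeloid cells, higher at 8.02, against 7.39 to 7.60 (adjusted p = 0.0396), and KDR, a receptor of endothelium, higher at 7.54, against 6.78 to 7.04 (adjusted p = 0.0475). Without PD98059, Tyrphostin AG 1478 or mAb225 and with the most variable probe set both calls were lost, and ITGAM lost its call also with the mean of all probe sets, and KDR also without TNF protease inhibitor-2 and after quantile normalization. Of the fibroblast genes, DCN, the proteoglycan decorin, was at 9.57, against 7.63, 7.50, 7.28, 7.57 and 8.70 (limma adjusted p = 0.0631), and PDGFRA, a growth factor receptor, at 7.71, against 6.62 to 6.80, while COL3A1, a main fibroblast collagen, was at 6.96, against 6.94 to 7.18, and COL1A1, another, at 9.30, against 9.56 to 10.67. KRT16 and DCN passed the limma test without AIIB2 and with genes under the median level left out, KRT16 also after quantile normalization and without TNF protease inhibitor-2, and DCN also with the mean of all probe sets. The part of these markers in the other results was not tested.

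Other probe sets of the same genes bear on the counts at least 2-fold outside. Of the 65 genes above the range 29 had further probe sets, 56 in all, of which 43 were above the range too and 5 below it. Of the 60 genes below it 26 had further probe sets, 41 in all, of which 37 were below it and 0 above. In 22 of the 60, the dominant-negative Rap1 level was under the median of its own sample, where no detection calls were available and a difference is a lower estimate if the transcript was absent. In 15 of the 65 the mean of the 5 agents was under the middle one of their 5 sample medians, and the same limit applies. Set against all 8 other agents of both tables, a comparison added after the data were seen, 36 genes were at least 2-fold above and 35 at least 2-fold below.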

How the data were processed

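Total RNA of HMT3522 cells, extracted with Trizol and labelled with biotin per the labels' protocols, was measured on Affymetrix U133A-type arrays. What was deposited reads as log2 intensity, judged from the range. How the authors summarised, background-corrected and normalized the arrays is not given in the sources used here, and detection calls were not used. All 6 compared samples lie in 1 of 2 deposited tables, whose 7 columns were matched to samples by title. Of 22215 probe sets 19707 had 1 gene, with symbols updated through RefSeq for 19689. Of 12149 genes, each read by 1 probe set, that of the highest mean over 15 samples, the dimmest 25% were left out and 9111 tested.

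Dominant-negative Rap1 was compared with the 5 other agents with limma 3.58.1 in R 4.3.3 (lmFit and eBayes, 2-sided, 4 residual degrees of freedom, Benjamini-Hochberg over all genes tested, threshold 0.05), and by the distance of its value from the range of the 5, called at 1 log2 unit (2-fold). These steps were tested on simulated data. The number of arrays limits the precision, and, as no label speaks of separate cultures, p-values cover the spread among these arrays alone. The members, the gene lists and the rule for named genes were chosen with earlier results of these data known. The rule takes the 12 genes farthest above and the 12 farthest below the range, without genes that have another probe set outside it the opposite way by 0.5 or more, RAP1A and RAP1B, and up to 4 members of each list at least 0.5 outside the range or, for a list with none, the member with the largest difference from the mean of the 5. Genes named for lying outside the range therefore cannot overlap the 5 agents. KRT5, KRT14, KRT19, PTPRC, PECAM1, PDGFRA, COL1A1 and COL3A1 were named after their values were seen. Differences are log2, with standard errors. Alternatives were other probe set rules, filters and normalizations, eBayes with an intensity trend, all 9 agents with the table as a block, and leaving out each agent. The most variable probe set is that with the largest interquartile range over the 6 samples, a measure in which 1 far sample weighs little.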

Additional observations from a re-analysis of the deposited data

Results flagged for a closer look

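Among the 5 other agents, 1 sample lay apart from the other 4 by Dixon's criterion for 13 of the 102 named genes. Chance marks about 1 in 20 groups. AIIB2 was that sample for 10 genes and TNF protease inhibitor-2 for 3. The levels with dominant-negative Rap1, with the sample that lay apart and with the other 4 are given in that order. Of genes with AIIB2 apart, ACACA had levels of 9.29, 10.12 and 10.40 to 10.50, and CDH1 had levels of 9.34, 11.92 and 10.64 to 10.99. CIDEC had levels of 7.15, 7.24 and 7.06 to 7.10, and CLDN1 had levels of 11.51, 10.51 and 8.12 to 8.72. DCN had levels of 9.57, 8.70 and 7.28 to 7.63, and DNAJB1 had levels of 9.77, 10.74 and 10.31 to 10.40. ELOVL6 had levels of 7.61, 9.10 and 8.59 to 8.73, and FGFR3 had levels of 7.30, 10.22 and 9.85 to 9.93. ID2 had levels of 8.78, 10.80 and 9.47 to 9.83, and ITGB5 had levels of 9.20, 8.60 and 7.66 to 7.93. Of genes with TNF protease inhibitor-2 apart, IFITM1 had levels of 10.59, 9.61 and 8.79 to 9.02. PCLAF had levels of 8.13, 12.13 and 10.85 to 11.14, and TKT had levels of 10.48, 11.76 and 11.11 to 11.25. In CDH1, CLDN1, DCN and ITGB5 the level with AIIB2 widened the spread of the 5, and CLDN1 passed the limma test without AIIB2 (limma adjusted p = 0.000959, against 0.0906 with all 5).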

How the results depend on the processing

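The counts at least 2-fold outside the range kept within 1.5 times of 65 and 60 under every alternative but 1. When 1 agent was left out they were 66 to 89 above and 61 to 79 below. Leaving out an agent cannot widen the range, so these counts could not fall and do not show stability. With the range of all 8 other agents they were 36 and 35, since more samples widen the range. The limma counts when 1 agent was left out ran from 148 to 779 higher and from 102 to 710 lower. Genes lower numbered 175 with the most variable probe set and 477 with all 9 agents and the table as a block, and the cause was not tested. Of 75 named genes called, 43 kept the call under every alternative. Differences changed sign for DNAJB1 (0.14 with the most variable probe set). Of 39 list medians, 17 changed sign under at least 1 alternative, and 11 of these were within 0.105 of 0 as reported and moved by less than the spread among the 5 agents. Those that moved by more were basement membrane and matrix (0.18 with the mean of all probe sets, 0.25 with genes under the median left out), heat shock proteins (0.14, most variable probe set), p53 targets (-0.175, genes under the median left out), ribosomal proteins (0.0423 after quantile and 0.0421 after cyclic loess normalization), and the markers of adipocytes (-0.0126 without the filter) and of endothelium (0.29 with the most variable probe set, 0.28 with the mean of all probe sets). The causes were not tested. No paired analysis was possible because the agents carry no replicate numbers and each has 1 sample. No floor for undetected probe sets is known, so low levels are not separable from background.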
